A study of Mus musculus with 2 samples.

Results

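The genes described are 10 that act when a phagocyte takes up photoreceptor outer segments, found by symbol among the 32285 genes counted in single cells of the mouse eye cup. They are the receptors *Mertk*, *Axl* and *Tyro3*, their bridging ligands *Gas6* and *Pros1*, the integrin subunits *Itgav* and *Itgb5* with the ligand *Mfge8*, the scavenger receptor *Cd36*, and the lysosomal protease *Ctsd*. All 10 were found, each under 1 gene identifier. They were chosen for their function, but with earlier results of these data known. Cells came from mouse embryos at E17.5, where E counts days of embryonic development, with 1 pooled library from *Myrf* humWT/humWT mice and 1 from *Myrf* humdG/humdG mice. In both genotypes the last mouse exon of *Myrf*, a transcription factor gene of the retinal pigment epithelium (RPE), is replaced by the human exon, and the humdG allele also carries a C-terminal variant of the kind linked to nanophthalmos, an abnormally small eye. The humWT library is therefore a humanized control, not an unmodified mouse. The titles of the samples give 3 eye cups pooled per library, while the study's methods give 3 mice and the eyes of both sides. The protocol in the labels names *Rx>cre Myrf* fl/fl mice, so the dissection it describes may not be that of these libraries. The cells were not sorted, and with 1 library per genotype there is no replicate, so no test between genotypes is possible. Every interval is a 95% interval for counting error only and covers neither embryos nor preparations.

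Photoreceptors shed the tips of their outer segments daily, and the RPE binds, engulfs and digests them. The integrin alpha v beta 5 with its ligand MFGE8 is known to tether the shed tips, MERTK with GAS6 or PROS1 triggers their engulfment, and cathepsin D degrades the ingested protein inside the lysosome. Macrophages use many of the same proteins to clear dying cells, and mouse outer segments form only after birth, so an E17.5 eye has the uptake genes before their substrate.

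*Prph2*, which encodes a structural protein of outer segment discs, had 59.4 CPM, the count scaled to a class total of 1000000, from 315 unique molecular identifiers (UMIs) in the photoreceptor precursor-like cells of the humWT library. In those of the humdG library it had 41.2 CPM from 235 UMIs.

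A UMI marks 1 captured transcript, and a level here is the sum of a gene's UMIs over the cells of a class, scaled in this way. Of 17421 and 19565 barcodes, 16166 humWT and 18172 humdG cells were kept, with medians of 3785 and 2625 UMIs per cell. The libraries share 102 barcodes, and 86 kept cells of each library carried one of these. Clusters were formed without the 10 genes and named from marker lists, which gave 15 classes, and names end in "-like" because they rest on markers only. Another 5 clusters stayed unnamed, with 33.4% of the humWT and 50.3% of the humdG cells. Leading classes and ranks are therefore among the 15 named classes, which leave out unequal shares of the libraries. The RPE-like class held 552 humWT and 402 humdG cells in 2 clusters, and the macrophage-like class held 249 and 162 cells in 1 cluster.

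The larger RPE-like cluster raised 8 of the 9 RPE markers, among them the pigment genes *Pmel* and *Dct* and the retinoid carrier gene *Rlbp1*. The smaller one raised 7 of the 9, with none among its 10 leading genes. *Rpe65*, the visual cycle isomerase, was at 0.693 CPM in humWT and 1.21 CPM in humdG, from 3 UMIs in each library, so this marker of mature RPE was nearly absent. *Myrf* itself was counted at 283 CPM in humWT and 198 CPM in humdG RPE-like cells. The macrophage-like cluster raised all 9 of its markers, and *S100a8* and *Stfa1*, genes of neutrophils, were also among its 10 leading genes. The 4 neutrophil genes looked at summed to 5096 CPM in its humWT cells and 14467 CPM in its humdG cells.

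Free RNA gives UMIs of a gene in cells that do not express it, and red blood cell-like cells were taken as the gauge of it. Their median depth was 4170.0 UMIs in humWT and 4180.0 UMIs in humdG, against 3915.5 and 2586.5 UMIs in RPE-like cells and 7486 and 7194.5 UMIs in macrophage-like cells. All 8 of the genes that could be compared there had a lower level in the humdG library. Of these, 7 were at least 1.5-fold lower, where 26.4% of 7223 genes were, so the gauge itself was lower in humdG. *Cd36*, for which these cells are no gauge, as said below, was among the 8. The haemoglobin gene *Hbb-bs* alone was at 256954 CPM in humWT and 294070 CPM in humdG red blood cell-like cells. Haemoglobin thus took a large part of their UMIs, which lowers the CPM of other genes there, more so in humdG. Folds above the gauge are therefore likely too high, and its fall in humdG is in part one of scale. Sums of markers of other classes also moved with genotype. The 9 mesenchyme markers summed to 2119 CPM in humWT and 890 CPM in humdG RPE-like cells, and to 1964 and 627 CPM in macrophage-like cells, with none of the 9 at 0. Haemoglobin genes moved the other way and summed to 3048 and 7164 CPM in macrophage-like cells. The part of these in the results was not tested, except where a value is given beside a result. Where free RNA was subtracted, its profile came from the 500 deposited barcodes with the fewest UMIs in each library, scaled by haemoglobin. These barcodes, of 513 to 1307 UMIs in humWT and 502 to 979 in humdG, were not shown to be empty of cells. The share taken as free RNA was 41.9% and 38.0% of RPE-like UMIs, and 22.5% and 37.5% of macrophage-like UMIs, in humWT and humdG.

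**Figure D1:**
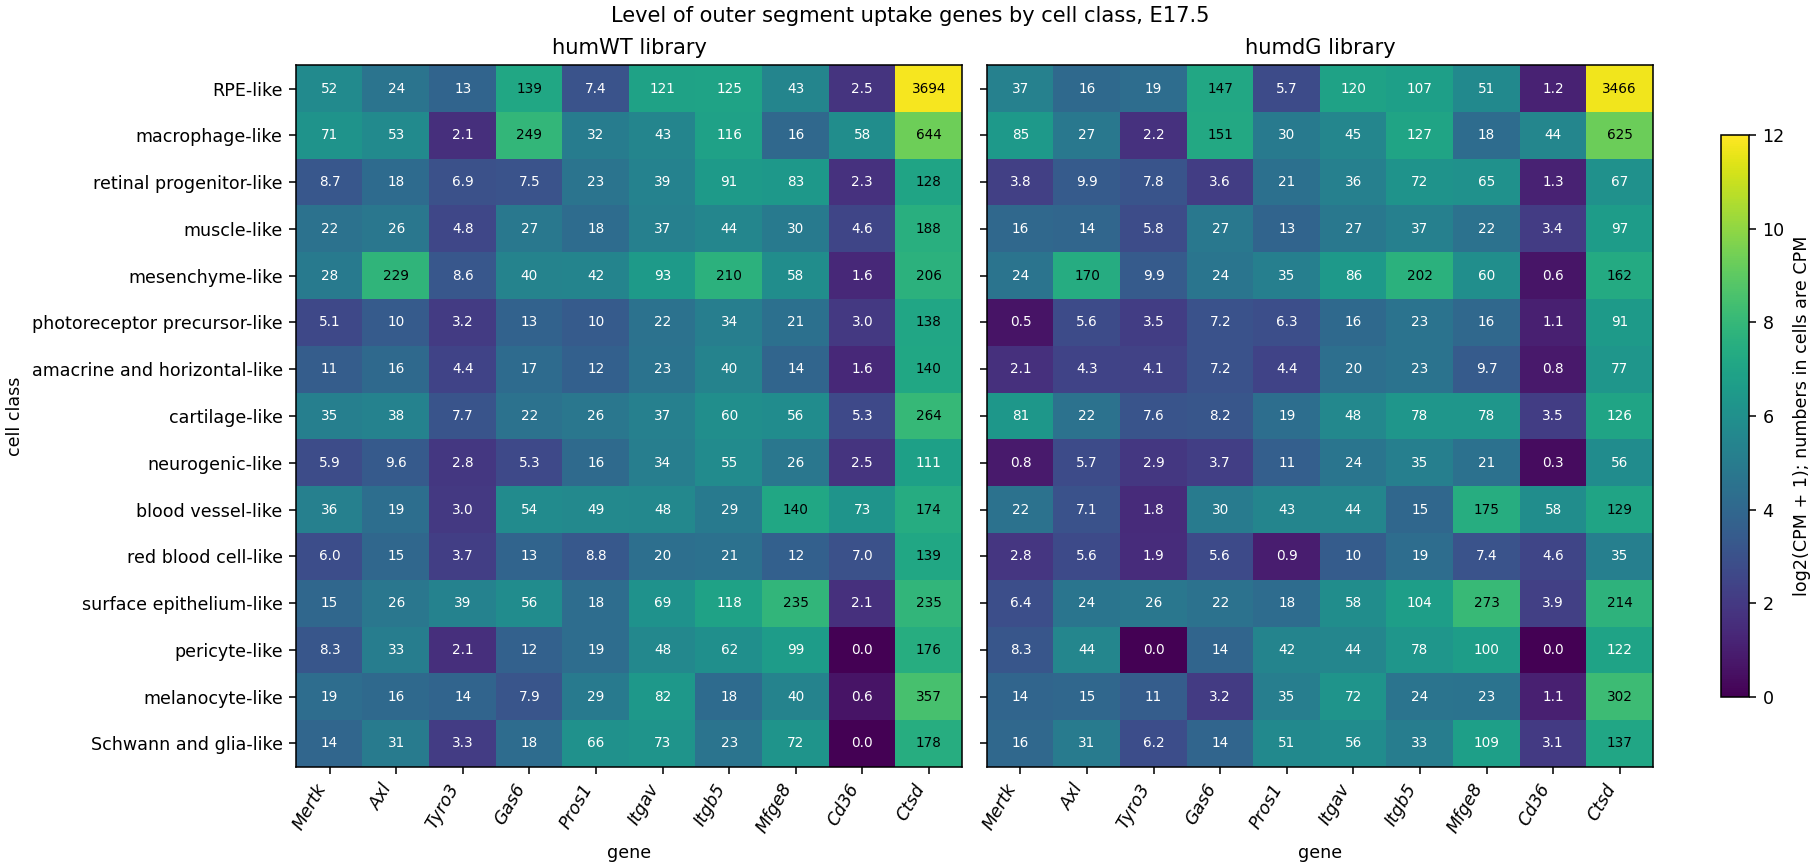
Level of each gene in CPM, printed in each cell and colored as log2(CPM + 1), in the 15 named cell classes of the humWT library (left) and the humdG library (right). Read down a column, since levels of different genes are not compared. *Ctsd* and *Itgav* led in RPE-like cells, *Mertk* and *Gas6* in macrophage-like cells, and *Axl* and *Itgb5* in mesenchyme-like cells of both libraries.

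Each of the 10 genes had the same leading class in both libraries. The RPE-like class led for *Itgav* and *Ctsd*, the macrophage-like class for *Mertk* and *Gas6*, and the mesenchyme-like class for *Axl* and *Itgb5*. Surface epithelium-like cells led for *Tyro3* and *Mfge8*, Schwann and glia-like cells for *Pros1*, and blood vessel-like cells for *Cd36*. The leading class stood apart from the second, with an interval of their ratio that left out 1, for 9 genes in humWT and 6 genes in humdG. Lower in the order the classes ran together. Over all 10 genes, 35 of 140 neighboring pairs of classes stood apart in humWT and 26 in humdG.

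*Mertk* (ENSMUSG00000014361, GRCm38 chr2:128698956-128802894, plus strand) encodes the receptor tyrosine kinase without which the RPE cannot ingest outer segments. In RPE-like cells it was counted at 51.8 CPM (45.2 to 59.0) in humWT and 37.2 CPM (30 to 45.6) in humdG. In macrophage-like cells it reached 71.3 CPM (61.9 to 81.8) in humWT and 85.5 CPM (72.5 to 100.2) in humdG. Both classes stood far above red blood cell-like cells, which had 6.05 CPM in humWT and 2.79 CPM in humdG.

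The order below the macrophage-like class differed between the libraries. In humWT, macrophage-like cells stood 1.38-fold (1.13 to 1.67) above RPE-like cells, which were second and stood 1.43-fold (1.20 to 1.71) above blood vessel-like cells. In humdG, cartilage-like cells were second at 81.1 CPM, and their level could not be told apart from that of macrophage-like cells by counting error (1.05-fold, 0.832 to 1.34). The cartilage-like class was unlike between libraries, with 1200 humWT and 135 humdG cells and 47.4% of 12014 genes at least 1.5-fold higher in humdG. RPE-like cells ranked 3 of 15 in humdG. Photoreceptor precursor-like cells were lowest in both libraries, at 5.09 CPM in humWT and 0.526 CPM in humdG.

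*Mertk* in RPE-like cells had a log2 ratio of humdG to humWT of -0.48 (-0.84 to -0.12). It was lower in humdG by less than 1.5-fold, with an interval that left out no change. That value leaned on few cells. A single RPE-like cell held 19.6% of the humdG *Mertk* UMIs, and without the 1% of cells with the most UMIs the log2 ratio was -0.92. Within the larger RPE-like cluster alone it was -0.29 (-0.68 to 0.10). The smaller cluster had 119 CPM from 60 UMIs in 74 humWT cells and 96.6 CPM from 8 UMIs in 15 humdG cells. It had the higher *Mertk* level in both libraries, in humdG from few UMIs, and a smaller share of the class in humdG. In macrophage-like cells the log2 ratio was 0.26 (-0.05 to 0.57), and the interval did not leave out 0. It ran from -0.55 in thinned cells, where it rests on 18 and 8 UMIs, to 0.60 with free RNA subtracted, which is past 1.5-fold.

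*Axl* (ENSMUSG00000002602, chr7:25757273-25788705, minus strand) encodes a receptor of the same family that macrophages use in inflamed tissue. Its leading class was mesenchyme-like cells, with 229 CPM (223 to 236) in humWT and 170 CPM (162 to 178) in humdG. These cells held 58.5% of all humWT *Axl* UMIs and 50.2% of the humdG UMIs. Macrophage-like cells had 53.2 CPM (45.1 to 62.4) in humWT and 27.4 CPM (20.3 to 36.2) in humdG. RPE-like cells had 23.6 CPM (19.2 to 28.6) and 16.2 CPM (11.6 to 22.0), which was 1.58-fold (1.06 to 2.44) and 2.90-fold (1.22 to 8.38) the level of red blood cell-like cells. *Axl* in RPE-like cells was thus close to the background that free RNA set.

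*Axl* was over 1.5-fold lower in humdG macrophage-like cells, with a log2 ratio of -0.96 (-1.45 to -0.49). It stayed past 1.5-fold lower under all 10 alternatives that gave a value, from -1.26 to -0.94. Red blood cell-like cells moved the same way, from 14.9 CPM to 5.57 CPM, and so did the sum of the mesenchyme markers within the macrophage-like cells, from 1964 CPM to 627 CPM. With free RNA subtracted the macrophage value was -1.16. That subtraction was scaled by haemoglobin, which was higher in humdG, and took 22.5% of humWT and 37.5% of humdG macrophage-like UMIs. It therefore cannot gauge RNA from mesenchyme-like cells, whose part was not tested. *Axl* was lower in humdG in 12 of the 14 classes compared, by at least 1.5-fold in 9 of them. These 9 include the red blood cell-like gauge and classes that could not be told apart from it in humWT by counting error. Among those were photoreceptor precursor-like (0.671-fold), retinal progenitor-like (1.18-fold) and blood vessel-like cells (1.27-fold). In mesenchyme-like cells, the leading class, *Axl* was lower by less than 1.5-fold.

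*Tyro3* (ENSMUSG00000027298, chr2:119797733-119818104, plus strand), the remaining receptor of the family, is known mainly from neurons and RPE. RPE-like cells had 13.4 CPM (10.2 to 17.3) in humWT and 18.6 CPM (13.6 to 24.8) in humdG. Macrophage-like cells had 2.09 CPM from 6 UMIs in humWT and 2.23 CPM from 4 UMIs in humdG, beside 3.72 CPM and 1.86 CPM in red blood cell-like cells. The RPE-like level was 6.42-fold (2.78 to 18.2) the macrophage-like level in humWT and 8.33-fold (3.04 to 31.8) in humdG. Surface epithelium-like cells led at 38.9 CPM in humWT and 25.7 CPM in humdG. In humdG they could not be told apart by counting error from RPE-like cells, the second class (1.38-fold, 0.775 to 2.39). Melanocyte-like cells were near the RPE-like level at 13.6 and 10.8 CPM. The log2 ratio between libraries in RPE-like cells was 0.47 (-0.12 to 1.06), with an interval that held 0. Without the 1% of cells with the most UMIs it was 0.02. The humdG UMIs of *Tyro3* then went from 46 to 27 and the humWT UMIs from 58 to 49, so the value leaned on few cells.

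*Gas6* (ENSMUSG00000031451, chr8:13465374-13494490, minus strand) encodes the bridging ligand that links phosphatidylserine on a dying membrane to all 3 receptors. It was counted at 139 CPM (128 to 151) in humWT and 147 CPM (133 to 163) in humdG RPE-like cells. Macrophage-like cells had 249 CPM (231 to 268) in humWT and 151 CPM (133 to 170) in humdG. RPE-like cells held 14.3% of all humWT and 18.0% of all humdG *Gas6* UMIs, and macrophage-like cells 16.9% and 13.4%, although they were 3.41% and 2.21%, and 1.54% and 0.891%, of the cells.

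The macrophage-like class, first in both libraries, stood apart from the RPE-like class in humWT alone. Macrophage-like cells stood 1.79-fold (1.60 to 1.99) above RPE-like cells in humWT, while in humdG the classes could not be told apart (1.02-fold, 0.872 to 1.20). The log2 ratio between libraries was 0.08 (-0.11 to 0.27) in RPE-like cells and -0.72 (-0.93 to -0.52) in macrophage-like cells. The difference in macrophage-like cells depended on which cells were counted. In the 185 humWT and 109 humdG cells with more C1q than neutrophil gene UMIs it was -0.48 (-0.69 to -0.28), short of 1.5-fold. In the 15 humWT and 26 humdG cells with more neutrophil gene UMIs, *Gas6* had 0 UMIs, which allows a share of cells with a UMI of up to 20% and 11.5%. With free RNA subtracted the log2 ratio was -0.43. In both cases *Gas6* stayed lower in humdG but short of 1.5-fold.

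*Pros1* (ENSMUSG00000022912, chr16:62854307-62929346, plus strand) encodes protein S, an anticoagulant of plasma and the other bridging ligand. Schwann and glia-like cells led with 65.6 CPM (49.9 to 84.6) in humWT and 51.4 CPM (35.4 to 72.2) in humdG. Blood vessel-like cells followed at 49.1 and 43.5 CPM, and neither library separated them from the leading class. RPE-like cells had 7.39 CPM (5.06 to 10.4) from 32 UMIs in humWT and 5.66 CPM (3.10 to 9.50) from 14 UMIs in humdG. In humWT that was the lowest of the 15 classes and 0.837-fold (0.460 to 1.56) the red blood cell-like level, so *Pros1* in RPE-like cells was not detectable above background at this depth. In humdG the ratio was 6.10 (0.928 to 258), with 1 UMI in red blood cell-like cells. Macrophage-like cells had more *Pros1* than RPE-like cells in both libraries, at 31.7 CPM (25.5 to 38.9) and 29.6 CPM (22.2 to 38.7). *Gas6* was therefore the bridging ligand that stood above background in RPE-like cells of both libraries.

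*Itgav* (ENSMUSG00000027087, chr2:83724397-83806916, plus strand) encodes the alpha v integrin subunit, which pairs with several beta subunits. The RPE-like class led, with 121 CPM (111 to 132) in humWT and 120 CPM (107 to 135) in humdG. It stood 1.31-fold (1.18 to 1.44) and 1.40-fold (1.22 to 1.60) above mesenchyme-like cells, the second class in both. Macrophage-like cells had 43.1 CPM and 44.7 CPM, so the RPE-like level was 2.81-fold (2.30 to 3.44) and 2.69-fold (2.09 to 3.49) higher. The log2 ratio between libraries was -0.01 (-0.22 to 0.20) in RPE-like cells and 0.05 (-0.37 to 0.47) in macrophage-like cells.

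*Itgb5* (ENSMUSG00000022817, chr16:33829665-33949338, plus strand) encodes the beta 5 subunit, the partner of alpha v at the RPE surface. Mesenchyme-like cells led with 210 CPM (204 to 217) in humWT and 202 CPM (194 to 211) in humdG. RPE-like cells had 125 CPM (115 to 136) in humWT and 107 CPM (94.7 to 121) in humdG, and macrophage-like cells had 116 CPM (104 to 129) and 127 CPM (111 to 144). RPE-like, macrophage-like and surface epithelium-like cells followed mesenchyme-like cells in both libraries, and neighbors among these 3 could not be told apart by counting error. The log2 ratio between libraries was -0.23 (-0.44 to -0.01) in RPE-like cells and 0.13 (-0.12 to 0.38) in macrophage-like cells.

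Both subunits were found in the same cells. Among cells of at least 5000 UMIs, 44.6% of 213 humWT and 44.2% of 104 humdG RPE-like cells had a UMI of *Itgav* and of *Itgb5*. Of the humWT RPE-like cells with *Itgav*, 74.2% had *Itgb5*, against 42.4% of those without. In humdG the shares were 73.0% and 31.7%. Cells with more UMIs are more likely to hold either gene, and depth was not matched in these shares.

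*Mfge8* (ENSMUSG00000030605, chr7:79133768-79149060, minus strand) encodes the secreted ligand of alpha v integrins. Its leading class was surface epithelium-like cells at 235 CPM (210 to 262) in humWT and 273 CPM (237 to 312) in humdG. Blood vessel-like cells were second at 140 and 175 CPM, and the retinal progenitor-like cells had 82.6 and 65.2 CPM. RPE-like cells ranked 8 of 15 in both, with 43.2 CPM (37.2 to 49.9) and 51.0 CPM (42.5 to 60.7). Macrophage-like cells had 15.7 CPM and 17.9 CPM, so the ligand was 2.76-fold (1.98 to 3.91) and 2.85-fold (1.92 to 4.34) higher in RPE-like cells. Most *Mfge8* thus lay outside both phagocyte classes, since RPE-like cells held 2.38% of its humWT and 2.16% of its humdG UMIs and macrophage-like cells 0.573% and 0.548%. The log2 ratio between libraries was 0.24 (-0.10 to 0.57) in RPE-like cells. It moved with the processing, from -0.22 when cells were picked by markers without clusters to 1.60 when each cell was thinned to 1000 UMIs. With free RNA subtracted it was 1.13. The cells picked by markers were a wider set, with 1414 humWT and 490 humdG UMIs of *Mfge8* against 187 and 126. The thinned value rests on 10 humWT and 22 humdG UMIs of 1 random draw.

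*Cd36* (ENSMUSG00000002944, chr5:17781690-17888801, minus strand) encodes a scavenger receptor for oxidized lipids that capillary endothelium uses to take up fatty acids. Blood vessel-like cells led with 72.9 CPM (67.1 to 79.1) in humWT and 58.1 CPM (50.2 to 66.8) in humdG. Macrophage-like cells were second with 58.1 CPM (49.6 to 67.6) and 44.1 CPM (34.9 to 55.01). RPE-like cells had 2.54 CPM (1.27 to 4.55) from 11 UMIs in humWT and 1.21 CPM (0.250 to 3.55) from 3 UMIs in humdG. Red blood cell-like cells had 6.98 and 4.64 CPM, but their precursors are known to carry CD36, so they are no gauge of free RNA for this gene. The RPE-like level could not be told apart by counting error from that of neurogenic-like cells in humWT (1.02-fold, 0.374 to 2.93), nor from that of retinal progenitor-like cells in humdG, at 1.25 CPM. Its 14 UMIs in RPE-like cells kept it out of the comparison of libraries there. In macrophage-like cells its log2 ratio was -0.40 (-0.80 to -0.0017), lower in humdG by less than 1.5-fold.

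*Ctsd* (ENSMUSG00000007891, chr7:142375911-142388038, minus strand) encodes cathepsin D, the lysosomal aspartic protease that cleaves ingested protein. RPE-like cells led with 3694 CPM (3637 to 3752) in humWT and 3466 CPM (3393 to 3540) in humdG. Macrophage-like cells were second at 644 CPM (615 to 674) and 625 CPM (589 to 663). The RPE-like level was therefore 5.74-fold (5.47 to 6.02) higher in humWT and 5.54-fold (5.21 to 5.90) higher in humdG. Melanocyte-like cells had 357 CPM in humWT and 302 CPM in humdG. That class was named from markers that include *Pax3*, *Sox10*, *Kit* and *Ednrb*, and none of its raised markers is among its 10 leading genes, while *Dct*, *Tyrp1* and *Slc45a2*, pigment genes on the RPE list, are.

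The RPE-like clusters differed in *Ctsd*. The larger had 4095 CPM in humWT and 3551 CPM in humdG, while the smaller had 647 and 1015 CPM, close to the macrophage-like level in humWT. In the larger cluster the log2 ratio between libraries was -0.21 (-0.24 to -0.17), and in the smaller it was 0.65 (0.29 to 1.00), past 1.5-fold higher in humdG.

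RPE-like cells were 3.41% of humWT cells and held 39.6% of *Ctsd* UMIs, and in humdG they were 2.21% of cells and held 39.1%. Red blood cell-like cells had 139 CPM of *Ctsd* in humWT and 35.3 CPM in humdG. The log2 ratio between libraries in RPE-like cells was -0.09 (-0.13 to -0.05), from 15988 and 8568 UMIs. *Ctsd* also differed with the depth of the cells. RPE-like cells of at least 5000 UMIs had 4391 CPM in humWT and 4095 CPM in humdG, while those with fewer UMIs had 1519.7 and 1971 CPM, and in the latter the level was higher in humdG (log2 ratio 0.38, 0.27 to 0.48). Between the clusters the order was the other way, since the smaller one, with the lower level, was the deeper, at medians of 6499.5 and 4669 UMIs against 3546 and 2531.

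The start of *Ctsd* carries the letters CACGTG, the E-box that the MITF and TFE family of transcription factors is known to bind in lysosomal and pigment genes. Among the 250 bases before the RefSeq start of each of the 10 genes, only those of *Ctsd* held CACGTG, which reads the same on both strands. It stood there at 2 places, 245 and 98 bases before the start, where 6.05% of 27025 promoters held it at all and 0.448% held it more than once. CATGTG, searched on both strands, was in none of the 10, where 12.2% of promoters held it. The 30 bases shown for the first site span chr7:142388048-142388077, and the motif in them lies outside the exons of *Ctsd* in GENCODE M21. Those for the second site span chr7:142387908-142387937, and the motif in them overlaps 3 annotated exons of the gene. Each stretch is shown on the minus strand of GRCm38 with the motif in capitals, because *Ctsd* led in RPE-like cells of both libraries.
Ctsd first site: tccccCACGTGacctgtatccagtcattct
Ctsd second site: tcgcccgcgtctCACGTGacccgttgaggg
A match of letters is a description and shows neither binding nor a cause. *Mitf*, an RPE marker used in naming the class, had 424 CPM in humWT and 299 CPM in humdG RPE-like cells, and *Tfeb*, its relative that drives lysosomal genes, had 27.7 and 10.1 CPM.

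**Figure D2:**
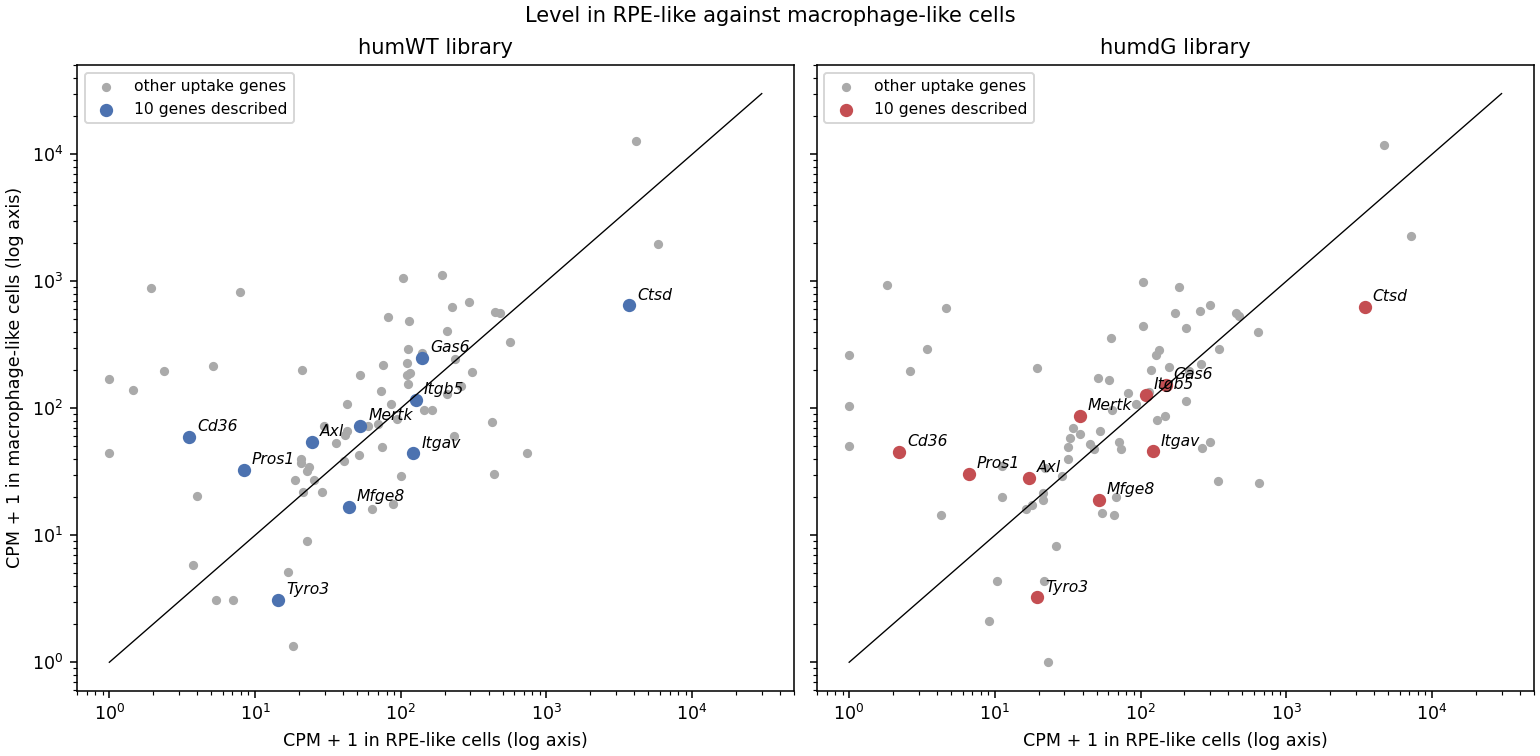
CPM + 1 of the 10 genes (colored, named) and of other uptake genes with at least 20 UMIs over both classes (gray) in RPE-like cells (x axis, log scale) and macrophage-like cells (y axis, log scale), for the humWT (left) and humdG (right) libraries, with a line at equal levels. *Ctsd*, *Itgav*, *Mfge8* and *Tyro3* lie on the RPE side of the line and *Cd36*, *Pros1* and *Axl* on the macrophage side in both libraries.

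The phagocyte classes divided the genes in a similar way in both libraries. *Tyro3*, *Itgav*, *Mfge8* and *Ctsd* were at least 1.5-fold higher in RPE-like than in macrophage-like cells of both libraries, 4 of 10 genes against 26.6% of 11940 genes. *Axl*, *Pros1* and *Cd36* were at least 1.5-fold lower in both, 3 of 10 against 18.5%. *Mertk*, *Gas6* and *Itgb5* did not meet either rule. The shares are not far from those of all genes. Of 75 further genes of engulfment and digestion, 68 had at least 20 UMIs in both libraries. By the same rule 16 of these were higher in RPE-like cells, among them *Ezr*, which anchors microvilli, and *Gulp1*, an adaptor of engulfment. Another 29 were lower there, among them *Trem2* and *Msr1*, receptors of macrophages, and the cathepsin gene *Ctss*. Those 75 genes were not kept out of the clustering, so their difference between classes is a description.

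**Figure D3:**
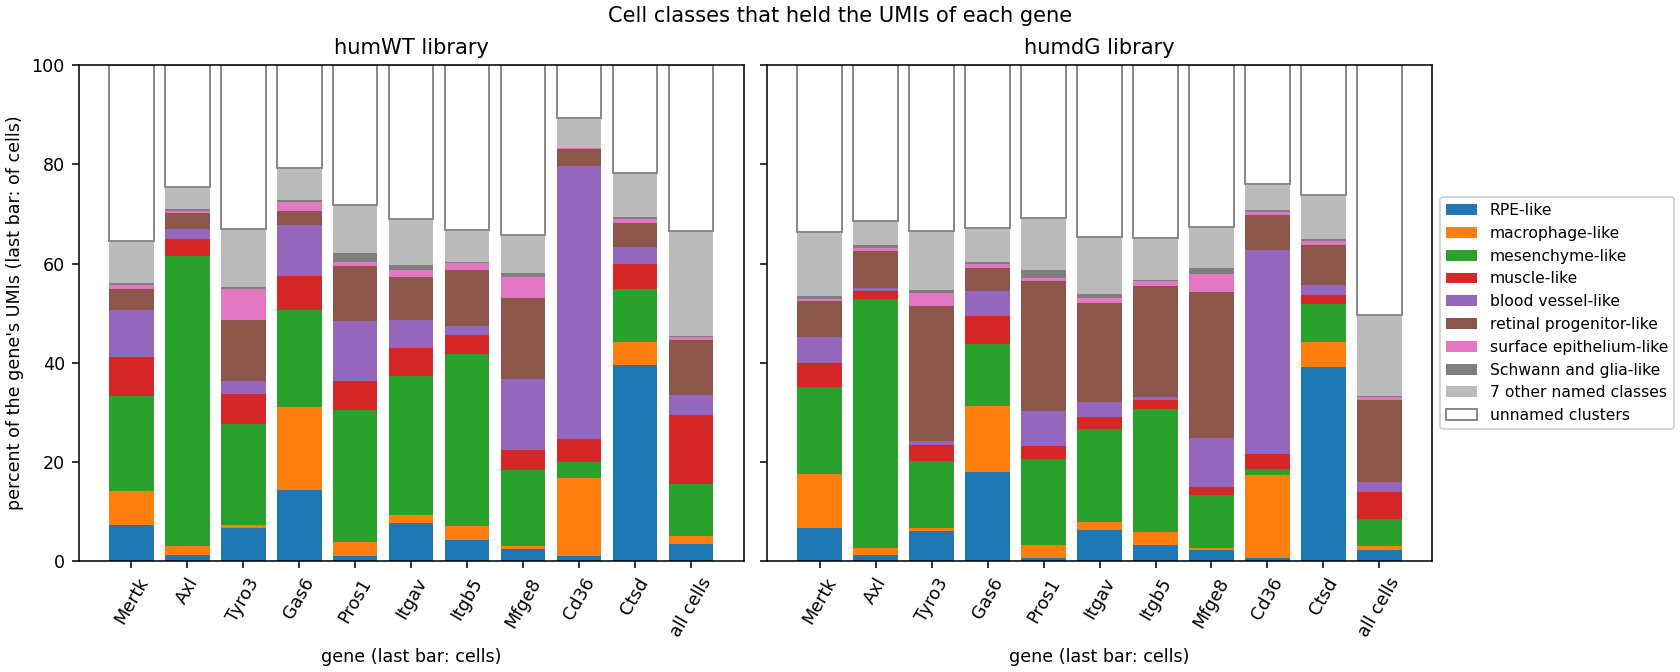
Share of each gene's UMIs (y axis, percent of the library's total for that gene) that lay in each cell class, with the share of cells in each class as the last bar, for the humWT (left) and humdG (right) libraries. RPE-like cells hold 39.6% and 39.1% of *Ctsd* UMIs, mesenchyme-like cells 58.5% and 50.2% of *Axl* UMIs, and blood vessel-like cells 54.96% and 41.2% of *Cd36* UMIs.

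The genes were also viewed by the share of cells in which they were found. *Ctsd* had a UMI in 91.1% of humWT and 88.1% of humdG RPE-like cells, while 43.9% and 14.5% of the red blood cell-like ones had it. Depth was then set equal by drawing 1000 UMIs from each cell, with 2 shallower humdG RPE-like cells and 6 red blood cell-like cells per library left out. *Ctsd* was found in 64.7% (60.5 to 68.7) of humWT and 71.8% (67.1 to 76.1) of humdG RPE-like cells at that depth. The red blood cell-like shares were then 15.1% (11.98 to 18.7) and 5.51% (2.97 to 9.24). *Ctsd* in RPE-like cells thus stood above the gauge of free RNA at equal depth in both libraries. Equal depth counts haemoglobin UMIs too, which left fewer draws for other genes in the red blood cell-like cells.

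*Mertk* had a UMI in 20.3% of humWT and 9.70% of humdG RPE-like cells, and in 33.3% and 31.5% of macrophage-like cells. At 1000 UMIs per cell *Mertk* was found in 3.62% (2.23 to 5.54) of humWT and 1.75% (0.706 to 3.57) of humdG RPE-like cells, and the intervals overlapped. Red blood cell-like cells had 0.648% (0.134 to 1.88) in humWT and 0 of 236 cells in humdG, which allows up to 1.27%. The humdG share in RPE-like cells was thus near the limit of what these counts can tell from background.

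At the same depth *Itgav* was found in 10.1% (7.75 to 12.97) of humWT and 10.5% (7.67 to 13.9) of humdG RPE-like cells, and *Itgb5* in 7.61% (5.54 to 10.1) and 7.50% (5.12 to 10.5). *Gas6* was found in 5.80% (4.00 to 8.09) and 8.75% (6.17 to 11.96) of RPE-like cells, and in 14.1% (9.99 to 19.0) and 9.88% (5.75 to 15.5) of macrophage-like cells. These shares lay above the red blood cell-like ones, which were at most 3.67%, and their intervals did not overlap except for *Itgb5* in humdG. *Mfge8* was found in 3.26% (1.94 to 5.10) and 4.50% (2.69 to 7.02) of RPE-like cells, beside 1.08% (0.352 to 2.502) and 0.847% (0.103 to 3.03) of red blood cell-like cells. These shares come from another random draw than the thinned log2 ratios, and 18 RPE-like cells of each library had a UMI of *Mfge8* in it, against 10 and 22 UMIs in the first. Its intervals overlapped those of red blood cell-like cells, as did those of *Axl*, *Tyro3*, *Pros1* and *Cd36*, whose shares in RPE-like cells were between 0.362% and 3.08%. For *Cd36* the red blood cell-like cells are no gauge of free RNA, so its overlap says nothing of background.

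**Figure D4:**
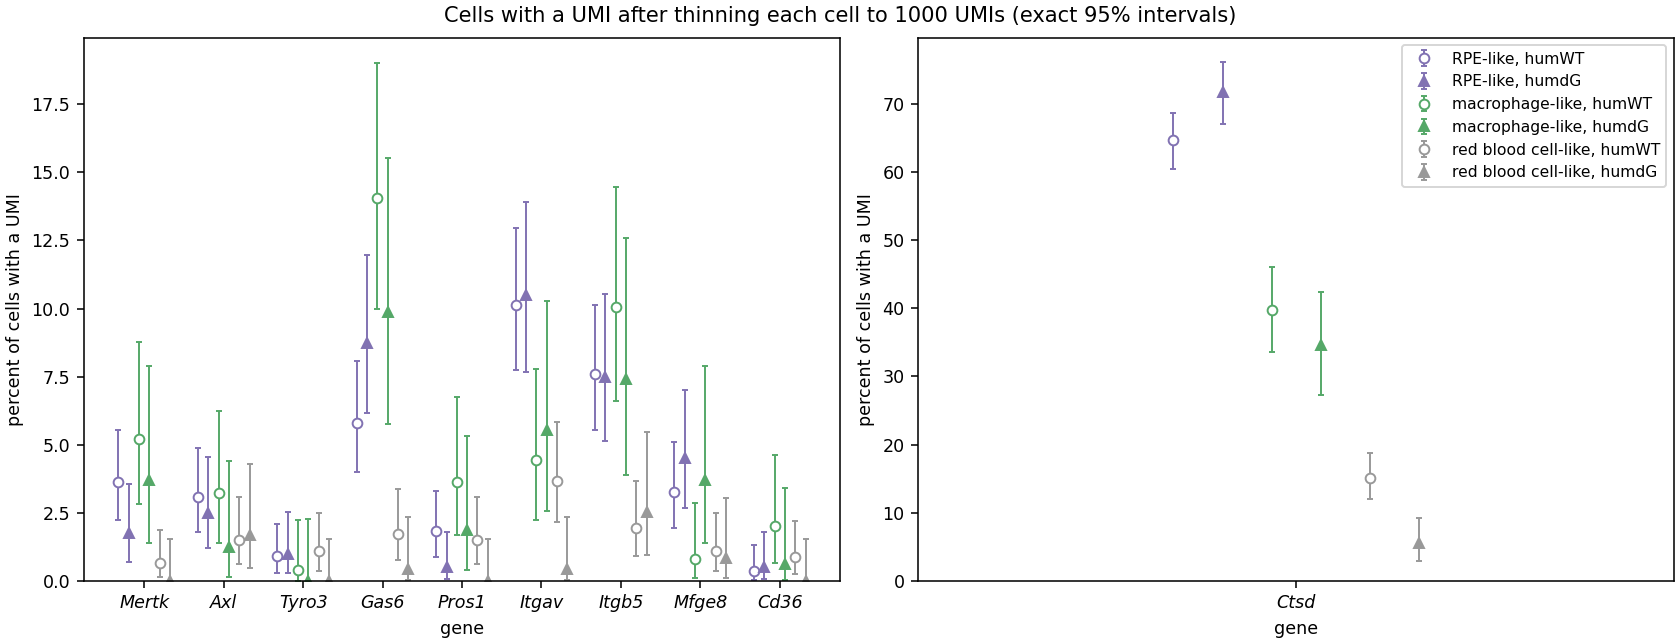
Percent of cells with a UMI (y axis) of each gene (x axis) after each cell was thinned to 1000 UMIs, in RPE-like (purple), macrophage-like (green) and red blood cell-like cells (gray) of the humWT (open circles) and humdG (filled triangles) libraries, with exact 95% intervals. *Ctsd*, on its own scale, reaches 64.7% and 71.8% in RPE-like cells, and *Gas6*, *Itgav* and *Itgb5* stand above the red blood cell-like cells. For *Itgb5* in humdG the intervals of these classes overlap.

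Receptor and ligand were counted in the same RPE-like cells. Among those of at least 5000 UMIs, 30.05% of 213 humWT cells had a UMI of *Mertk* and of *Gas6*, and 26.0% of 104 humdG cells did. *Mertk* with *Pros1* was found in 2 humWT cells and in 0 of 104 humdG cells, which allows a share of up to 2.88%. In macrophage-like cells of that depth, *Mertk* and *Gas6* were together in 35.9% of 142 humWT and 29.6% of 98 humdG cells, and *Mertk* and *Pros1* in 20.4% and 22.4%. *Mertk* and *Axl* were found together in 28.2% of humWT and 16.3% of humdG macrophage-like cells. The pair *Mertk* and *Gas6* was thus found in both phagocyte classes, at depths that were not matched between classes.

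Between the libraries, 9 of the genes reached 20 UMIs in the RPE-like class, and 0 of them were past 1.5-fold. In that comparison 22.7% of 12635 genes were, 7.18% higher and 15.6% lower in humdG. The 9 log2 ratios ran from -0.54 for *Axl* to 0.47 for *Tyro3*, with a median of -0.09 beside -0.07 for all genes. For *Mertk*, *Axl*, *Itgb5* and *Ctsd* the interval lay below 0, and for the other 5 it held 0. The count rose to 1 or 2 under 5 of the 11 alternatives, in which *Mertk*, *Axl* or *Mfge8* passed the fold.

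In macrophage-like cells, 2 of 9 genes were past 1.5-fold, both lower in humdG, where 22.0% of 11565 genes were past it and 11.5% were lower. They were *Axl* and *Gas6*, and the median log2 ratio was -0.04 beside -0.02 for all genes. *Mertk*, *Itgav*, *Itgb5*, *Mfge8*, *Pros1* and *Ctsd* had intervals that held 0. The 2 of 9 is near the share of all genes. Without the cells in which neutrophil genes matched or exceeded C1q, *Axl* alone passed, at -1.14 (-1.71 to -0.59), and *Mertk* was at 0.45 (0.12 to 0.77).

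Over the classes compared, phagocytes included, most values were lower in humdG. *Ctsd* was lower in all 14 classes compared, by at least 1.5-fold in 7, and *Gas6* in 11 of 13, by 1.5-fold in 9. Both counts include the red blood cell-like gauge. The log2 ratios of *Ctsd* ran from -1.98 in that class to -0.04 in macrophage-like cells. The classes share the same libraries and free RNA, and no such count over classes was made for all genes. The log2 ratios of *Gas6* ran from -1.41 in cartilage-like cells to 0.08 in RPE-like cells. In retinal progenitor-like cells 5 of 10 genes were at least 1.5-fold lower, beside 10.6% of 16060 genes, and in photoreceptor precursor-like cells 6 of 10, beside 10.8%. The count was 6 of 9 in amacrine and horizontal-like cells, beside 14.3% of all genes, 4 of 9 in neurogenic-like cells, beside 10.3%, and 5 of 10 in blood vessel-like cells, beside 10.5%. Each of these shares of the 10 genes was above that of all genes. It was 3 of 9 in surface epithelium-like cells, beside 14.5%, 2 of 10 in mesenchyme-like cells, beside 7.77%, and 2 of 10 in muscle-like cells, beside 9.43%. Pericyte-like and Schwann and glia-like cells had none lower, beside 11.3% and 15.9%, and 1 higher each, beside 17.3% and 8.5%, which were *Pros1* and *Mfge8*. Some of the levels behind these counts were near the gauge of free RNA. In humWT none of the genes 1.5-fold lower in retinal progenitor-like or photoreceptor precursor-like cells stood above red blood cell-like cells by counting error. *Cd36*, for which these are no gauge, was among them in both classes. For the others in photoreceptor precursor-like cells the ratio ran from 0.671 (*Axl*) to 1.13 (*Pros1*). In humdG *Ctsd* there was at 2.58-fold (1.86 to 3.69), and *Pros1* also stood above. *Ctsd* in retinal progenitor-like cells had 128 CPM in humWT and 67.0 CPM in humdG. In humWT it was 0.918-fold (0.812 to 1.04) the red blood cell-like level, and *Gas6* in these cells was 0.557-fold (0.369 to 0.869). In humdG *Ctsd* stood above that level, at 1.90-fold (1.38 to 2.69), and *Gas6* was 0.647-fold (0.286 to 1.81). Of the other genes counted in retinal progenitor-like cells, *Mertk* was 1.43-fold (0.811 to 2.76) and *Axl* 1.18-fold (0.815 to 1.76) that level in humWT. *Itgb5*, not among the 5 counted there, was well above the gauge in these cells. It was at 4.34-fold (3.22 to 5.98) in humWT and 3.86-fold (2.49 to 6.34) in humdG. *Mertk* in cartilage-like cells went the other way, from 35.1 CPM in humWT to 81.1 CPM in humdG (log2 ratio 1.21, 0.85 to 1.57). That class held 1200 humWT and 135 humdG cells, and 47.4% of 12014 genes were at least 1.5-fold higher there, while 3 of the 10 genes were lower beside 6.03%.

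**Figure D5:**
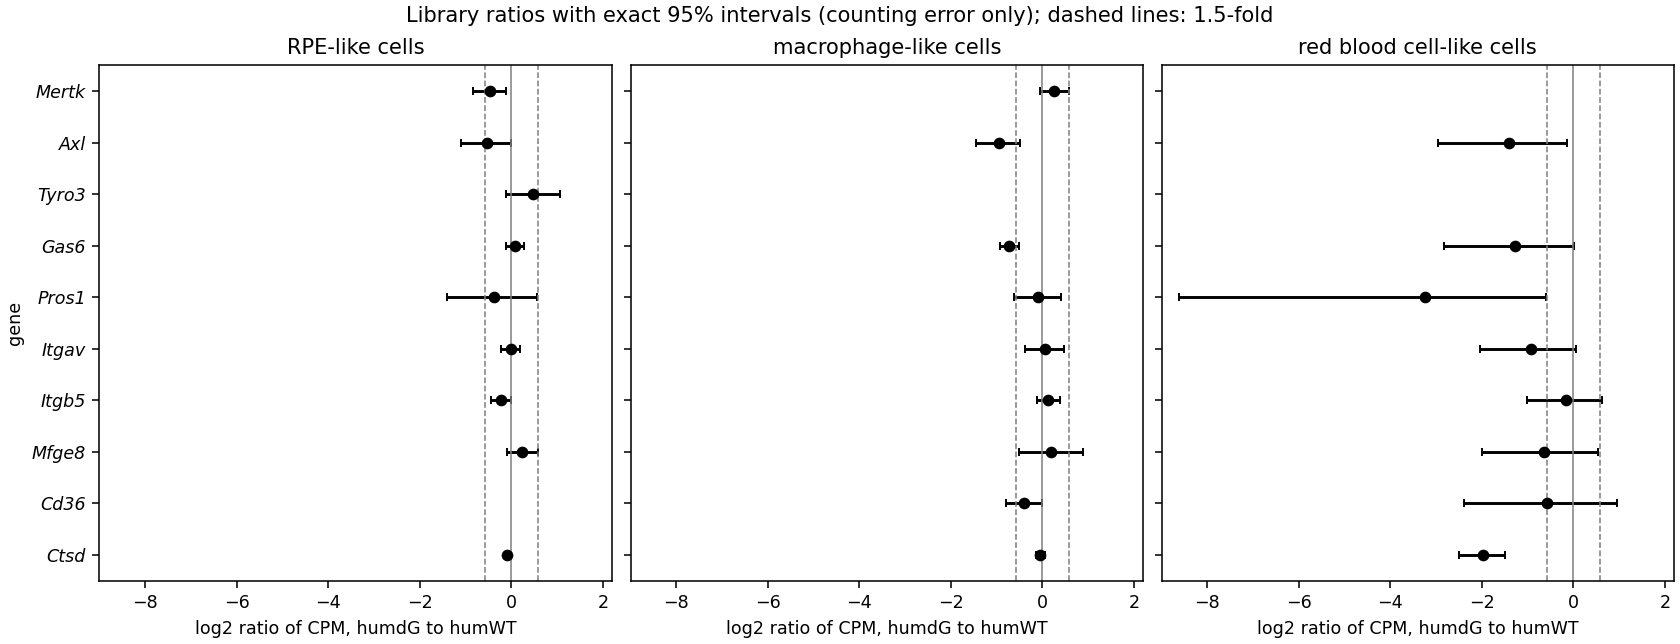
Log2 ratio of CPM, humdG to humWT (x axis), of each gene with at least 20 UMIs (y axis) in RPE-like, macrophage-like and red blood cell-like cells, with exact 95% intervals for counting error and dashed lines at 1.5-fold. All 9 values in RPE-like cells lie between the dashed lines, *Axl* and *Gas6* lie below them in macrophage-like cells, and 7 of 8 lie below them in red blood cell-like cells.

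The wider uptake machinery was read from 75 genes in 6 lists. In RPE-like cells 63 had at least 20 UMIs, of which 1 was at least 1.5-fold higher in humdG, 6 were lower and 56 were within the fold, beside 7.18% higher and 15.6% lower of all genes. The median log2 ratio of the 63 was -0.02. *Tulp1*, whose protein can act as a MERTK ligand, was the higher one, from 4.39 CPM to 9.30 CPM (log2 ratio 1.08, 0.14 to 2.04). These values rest on 19 and 23 UMIs. Red blood cell-like cells had 5.12 CPM in humWT and 9.28 CPM in humdG, so *Tulp1* in RPE-like cells was near the gauge of free RNA in both libraries. Of the lower ones, 4 had intervals that left out 0. *Dock1*, an exchange factor for RAC1 during engulfment, had a log2 ratio of -0.85 (-1.15 to -0.56). *Myo7a*, the myosin that moves melanosomes and phagosomes in the RPE, had -0.71 (-1.01 to -0.42). *Tfeb* had -1.46 (-2.14 to -0.82), and *Cln3*, a lysosomal membrane protein gene, -0.96 (-1.66 to -0.30). Of 16 genes of engulfment signaling and cytoskeleton, 2 were lower and 14 were within the fold, and of 13 genes of phagosome maturation 1 was lower and 12 were within it. The 15 lysosomal hydrolases and lipid exit genes held 1 lower gene and a median of 0.10, and the 9 of lipid efflux and fatty acid use held none past the fold. *Cd68* and *Stab1*, macrophage genes at 4.16 and 6.93 CPM in humWT, were the 2 lower genes whose intervals held 0.

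In macrophage-like cells 65 of the 75 had at least 20 UMIs, of which 3 were higher, 5 lower and 57 within the fold, beside 10.4% higher and 11.5% lower of all genes. The median log2 ratio of the 65 was -0.14. *Trem2*, a lipid receptor of macrophages and microglia, was among the higher ones at 0.63 (0.44 to 0.81), and so was *Cd81*, a tetraspanin that takes part in outer segment binding by the RPE, at 0.60 (0.42 to 0.78). The lower ones were the adaptors *Crk* at -0.60 (-0.98 to -0.22) and *Crkl* at -0.95 (-1.61 to -0.33), *Ezr* at -0.82 (-1.35 to -0.32), *Rubcn*, a gene of LC3-associated phagocytosis, at -0.81 (-1.50 to -0.16), and *Lipa*, the lysosomal acid lipase, at -0.67 (-1.05 to -0.30). The 4 neutrophil genes summed to 5096 CPM in humWT and 14467 CPM in humdG macrophage-like cells. The values of the 65 were not repeated without the cells rich in neutrophil genes, so the part of this mixture was not tested. Of the 75, none passed the fold in both phagocyte classes.

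Last, the genes whose pattern over classes was most like each of the 10 were found by Pearson's r of log2(CPM + 10) over 30 points, the 15 classes in both libraries, among 15886 genes. The points share libraries, depth and free RNA, so r is a description. *Pxdc1* was nearest to *Mertk* (r = 0.90), with *Grn* at 0.83 and *Rin2* at 0.82. *Mxra8*, *Vcam1* and *Creb3l1* were nearest to *Axl* with r from 0.89 to 0.90, and *Gsta4*, *Lsr* and *Btc* to *Tyro3* with r from 0.86 to 0.88. *Man1a* at 0.90 and *Ptgs1* at 0.88 came nearest to *Gas6*, and *Itgb1*, *Fam3c* and *Cmtm3* to *Pros1* at 0.88 each.

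*Itgav* lay nearest to *Laptm4a* at 0.91, then *Surf4* at 0.90 and *Magt1* at 0.89. *Itgb5* had the loosest likeness, with *Plxnb2* at 0.81 and *Sgms2* and *Smim1* at 0.78. *Uaca*, *Ajuba* and *Actn4* were nearest to *Mfge8* with r from 0.87 to 0.88. *Klhl6*, *Grap* and *Ifi203* were nearest to *Cd36* with r from 0.97 to 0.98, the closest of all 10. *Nacc2* at 0.89 and *Pip4k2c* at 0.88 were among the 3 nearest to *Ctsd*.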

How the data were processed

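Single-cell RNA counts were taken from 1 pooled E17.5 eye cup library per genotype. The authors made the deposited UMI counts with Cell Ranger 7.1.0 against mm10, as the file headers and the submitters' processing notes say, and the notes also name Seurat 4.1.1. The files hold more barcodes than the study states cells. From the counts, cells with over 500 genes and under 15% mitochondrial UMIs were kept. Because Scrublet, in scanpy 1.11.5, marked 1 and 0 cells, the top 5% of its scores were removed. Libraries were integrated and clustered in Seurat 5.3.0 (R 4.3.3) with 20 dimensions and resolution 0.5. Of 2000 variable genes, 3 were among the 10 genes studied and were dropped, which left 1997. A cluster was named from at least 3 markers raised 2-fold in 10% of its cells with 1 among its 20 leading genes, and an RPE-like name also needed *Ttr*, *Rlbp1* or *Rpe65*, a condition added after the clusters were seen. The melanocyte-like class was not compared between libraries.

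UMIs were summed per class and library in Python 3.11.15. Intervals at 95% are exact (Poisson for CPM, Clopper-Pearson for shares, conditional binomial for ratios, scipy 1.17.1). A gene was called past the fold at 1.5-fold with at least 20 UMIs over both libraries. With 1 library per genotype there is no p-value. Scripts were tested on simulated data. All 10 genes are named in full. Of the listed uptake genes, those past the fold are named, and the 3 nearest genes by r had at least 200 UMIs. Some genes that these rules name are not reported here. The members and lists were chosen with earlier results of these data known, and the listed genes, unlike the 10, could be among the clustering genes. Positions are from GENCODE M21 (GRCm38), where 32235 of 32285 identifiers were found, and promoters are from RefSeq. Alternatives were the clustering resolution, integration, doublets, the gene minimum, a marker rule, scaling, background subtraction, thinning and the deepest cells, and, added after seeing the data, cells of at least 5000 UMIs, the larger RPE-like cluster and macrophage-like cells with more C1q than neutrophil gene UMIs.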

Additional observations from a re-analysis of the deposited data

How the results depend on the processing

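No paired analysis was possible because each genotype has 1 library. In RPE-like cells the count of genes past 1.5-fold was 0 under 6 of 11 alternatives, 2 under the marker rule without clusters (*Mertk* and *Axl*) and with cells thinned to 1000 UMIs (*Mertk* and *Mfge8*), and 1 with background subtracted (*Mfge8*; *Pros1* was subtracted to 0 in humWT and gives no ratio), without the 1% of cells with the most UMIs (*Mertk*) and in cells of at least 5000 UMIs (*Axl*). In macrophage-like cells the count of 2 became 4 under the marker rule and 1, *Axl*, in cells with more C1q than neutrophil gene UMIs. It was 3 with background subtracted, where *Axl*, *Mertk* at 0.60 and *Mfge8* at 2.44, from 5.15 and 14.01 UMIs left after subtraction, passed and *Gas6* did not. In thinned cells *Gas6* and *Itgb5*, at 0.71, passed and *Axl* had too few UMIs. Under the other 7 alternatives *Axl* and *Gas6* were the 2 that passed. The median log2 ratio there, -0.04, was 0.33 with background subtracted, while in RPE-like cells it stayed between -0.23 and 0.05. The marker rule put 37.3% of all genes past the fold in RPE-like and 47.4% in macrophage-like cells. The cells it picked as RPE had 835 CPM of *Ctsd* in humWT and 1012 CPM in humdG, against 3694 and 3466 CPM in the RPE-like class. Their *Axl* was 65.3 and 24.2 CPM, against 23.6 and 16.2 CPM. They were thus a wider set than that class, and their ratios are not those of the RPE-like cells alone. Of 188 single-gene values under alternatives, 160 lay within the interval of the reported value and 28 outside it. *Mertk* in RPE-like cells was lower under all 11 alternatives, from -1.05 to -0.25, and past the fold under 3. *Ctsd* in RPE-like cells ran from -0.23 to 0.28. It lay outside its narrow interval under 8 of 11 alternatives and changed sign under 2, without passing the fold. The causes were not tested. The few UMIs of *Cd36* and *Pros1* in RPE-like and of *Tyro3* in macrophage-like cells limit the precision of their values.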
